A study of Mus musculus with 12 samples.

Results

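Apod, Tmtc2, Pcdh7, Cercam and Rab11fip2 are 5 of the 18193 genes measured on arrays of limbs from mouse embryos that carried or lacked Lmx1b. Lmx1b is a transcription factor of the LIM homeodomain class, and the dorsal side of the limb takes its identity from it. They were chosen by their measured values, because the level in knockout (KO) limbs lay below that in wild-type (WT) limbs at all 3 stages sampled. Every probe set that the array's annotation gives to these genes was read, 11 in all. The KO difference of each gene is therefore given as a description and was not tested. The samples were 12 arrays in 6 groups of 2, namely KO (Lmx1b -/-) and WT (Lmx1b +/+) at 11.5, 12.5 and 13.5 days post coitum (dpc), all labelled C57BL/6. At 11.5 and 12.5 dpc the limb bud with its girdle was taken, and at 13.5 dpc the distal limb, labelled handplate. Each array held total RNA pooled from several limbs, and the pools of a group came from different embryos. The extraction protocol gives 6 limbs a pool, while the series text gives 3 at 12.5 dpc and 6 at the other stages. The sources used here do not say which part of Lmx1b was deleted. Each stage has its own prefix in the array names, with both genotypes in it, so that stage and array series cannot be told apart.

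The 5 genes do not form 1 pathway. Apod encodes apolipoprotein D, a secreted lipocalin that carries small hydrophobic molecules such as arachidonic acid. Pcdh7 encodes a protocadherin of the delta type, a cell surface adhesion protein, and Tmtc2 encodes an enzyme of the endoplasmic reticulum from the family that attaches O-linked mannose to cadherins and protocadherins. Cercam belongs by sequence to the family of the collagen galactosyltransferases. Rab11fip2 binds the small GTPase Rab11 and the motor myosin Vb on recycling endosomes, from which cargo returns to the cell surface. In the limb bud, mesenchyme forms cartilage, tendon and other connective tissue, and Lmx1b is made on its dorsal side.

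The label of these genes as mesenchyme genes could not be checked for each gene, since whole limbs were read and no array separates cell types. The 10 markers of limb mesenchyme were all above the median of all values (6.28 log2 units), with Prrx1, a homeobox gene of limb mesenchyme, averaging 12.36. The 10 markers of surface ectoderm also lay above that median, so both tissues were in the pools. In RNA from whole limbs, fewer cells of a type and less RNA per cell cannot be told apart.

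The genes lie on 5 different chromosomes. The sequence around each start site is shown because homeodomain factors bind short AT-rich sites. That the genes moved together between genotypes follows from how they were chosen. Each window holds 250 bases before and 50 after a start in RefSeq (build GRCm38.p6), written 5′ to 3′ on the gene's strand, and all 5 genes were matched by symbol. Rab11fip2 has 2 such windows, of which the one that holds the annotated 5′ end of the gene is shown. The other is 78.33% G and C with 44 CpG and holds none of the motifs searched. Capitals mark the homeodomain core ATTA or its complement TAAT.
Apod, chr16:31314759-31315058, minus strand: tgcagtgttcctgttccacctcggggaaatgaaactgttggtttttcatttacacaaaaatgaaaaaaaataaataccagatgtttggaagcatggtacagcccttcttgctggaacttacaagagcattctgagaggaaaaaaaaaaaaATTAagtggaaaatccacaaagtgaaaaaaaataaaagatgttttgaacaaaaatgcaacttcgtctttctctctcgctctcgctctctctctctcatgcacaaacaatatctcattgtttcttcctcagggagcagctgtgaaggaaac
Tmtc2, chr10:105574430-105574729, minus strand: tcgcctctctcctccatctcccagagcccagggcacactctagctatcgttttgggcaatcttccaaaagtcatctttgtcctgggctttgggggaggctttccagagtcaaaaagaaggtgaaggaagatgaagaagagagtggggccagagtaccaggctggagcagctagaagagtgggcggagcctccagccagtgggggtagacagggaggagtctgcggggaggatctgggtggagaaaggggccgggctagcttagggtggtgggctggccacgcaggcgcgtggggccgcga
Pcdh7, chr5:57717831-57718130, plus strand: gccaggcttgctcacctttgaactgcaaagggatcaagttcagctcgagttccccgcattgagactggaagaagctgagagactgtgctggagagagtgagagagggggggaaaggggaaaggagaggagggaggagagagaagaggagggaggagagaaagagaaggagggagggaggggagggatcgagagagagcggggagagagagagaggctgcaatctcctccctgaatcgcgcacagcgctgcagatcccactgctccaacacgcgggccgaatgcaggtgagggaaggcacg
Cercam, chr2:29869244-29869543, plus strand: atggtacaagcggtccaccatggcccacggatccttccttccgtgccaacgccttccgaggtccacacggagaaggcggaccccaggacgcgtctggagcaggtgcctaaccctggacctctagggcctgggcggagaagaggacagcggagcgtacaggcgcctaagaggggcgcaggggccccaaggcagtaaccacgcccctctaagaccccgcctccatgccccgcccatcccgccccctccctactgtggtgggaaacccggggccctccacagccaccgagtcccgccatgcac
Rab11fip2, chr19:59943605-59943904, minus strand: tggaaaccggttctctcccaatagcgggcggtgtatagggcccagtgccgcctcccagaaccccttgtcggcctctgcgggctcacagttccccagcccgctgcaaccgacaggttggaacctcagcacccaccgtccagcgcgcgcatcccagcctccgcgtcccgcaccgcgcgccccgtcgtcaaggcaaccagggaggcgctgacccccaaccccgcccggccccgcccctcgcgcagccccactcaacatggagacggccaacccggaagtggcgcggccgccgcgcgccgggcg

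Among these windows Apod's was the only one with an ATTA core, at position -100 counted from the start. ATTA or TAAT, on either strand, occurs in 58% of the 32851 windows over all genes. TAATTA, the palindrome that LIM homeodomain factors bind and that contains both cores, occurs in 5.29% of all windows and in 0 of these. TATAAA, the TATA box read on either strand, occurs in 13.6% of all windows and also in 0 of these. The windows differed in base composition. Apod's was 37.33% G and C, with 4 CpG dinucleotides, while Rab11fip2's was 72.67% G and C, with 36. The Cercam window held 21 CpG, that of Pcdh7 11 and that of Tmtc2 10, against a median of 7 over all windows. These are matches of letters and show no binding.

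Array values are log2 expression values per probe set, so 1 unit is a doubling, and probe sets bind with different strength, so levels are compared within a probe set only. The targeted gene, Lmx1b, read by its brighter probe set 1441729_at, lay between 5.60 and 8.88 in the KO arrays and between 9.28 and 10.27 in the WT arrays. The KO array that lay highest was replicate 2 of 13.5 dpc, which also held Hbb-bh1, an embryonic globin, at 12.91 and the proximal limb gene Meis1 at 9.46, against 10.48 and 7.76 in the other KO array of that stage. Hspa1a, a heat shock gene, stood at 9.36 in KO replicate 2 of 12.5 dpc and between 4.80 and 5.71 in every other array. At 12.5 dpc the pools differed in sex composition, with Xist, the RNA of the inactive X chromosome, at 6.49 and 12.45 in KO and at 6.72 and 11.53 in WT. Replicate 2, with more Xist, minus replicate 1 was -0.016 for Apod, -0.053 for Rab11fip2, -0.21 for Pcdh7, -0.22 for Tmtc2 and -0.34 for Cercam in KO limbs. In WT limbs it was 0.17 for Apod and for Pcdh7, near 0 for Tmtc2 (0.012) and Cercam (0.0071), and -0.12 for Rab11fip2. The part of sex in these values was not tested. Because the KO arrays of replicate 2 at 12.5 and 13.5 dpc stand apart, results are given below also without both of them.

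Apod showed the widest separation. At 11.5 dpc its brighter probe set, 1416371_at, measured 6.41 and 6.46 in KO limbs, against 7.19 and 7.44 in WT limbs. At 12.5 dpc it measured 6.75 and 6.74 in KO limbs, against 8.33 and 8.50 in WT limbs. At 13.5 dpc it measured 7.02 and 7.29 in KO limbs, against 8.36 and 8.37 in WT limbs. The KO arrays were the lower ones at each stage, without overlap. KO minus WT was -0.88 at 11.5 dpc, -1.67 at 12.5 dpc and -1.21 at 13.5 dpc (SE 0.12 each, n = 2 per group), which puts the KO level at 0.544, 0.315 and 0.432 of the WT level. Over the 3 stages the difference was -1.25 ± 0.07 (SE, n = 6 arrays per genotype). Ordered from lowest to highest, the groups ran KO 11.5, KO 12.5, KO 13.5, WT 11.5, WT 13.5 and WT 12.5 dpc. In that order KO 13.5 and WT 11.5 dpc overlapped, as did WT 13.5 and WT 12.5 dpc.

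The second Apod probe set, 1444564_at, was dim, with a mean of 4.83 over the 12 arrays. It read 4.72 and 4.58 in KO limbs and 4.59 and 4.57 in WT limbs at 11.5 dpc, where the groups overlapped. At 12.5 dpc it read 4.46 and 4.69 in KO limbs, against 4.95 and 5.48 in WT limbs, and at 13.5 dpc 4.94 and 4.87 in KO limbs, against 5.05 and 5.09 in WT limbs. Its KO values were thus the lower ones at the last 2 stages only, and its mean difference over the stages was -0.24 ± 0.09 (SE).

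**Figure D1:**
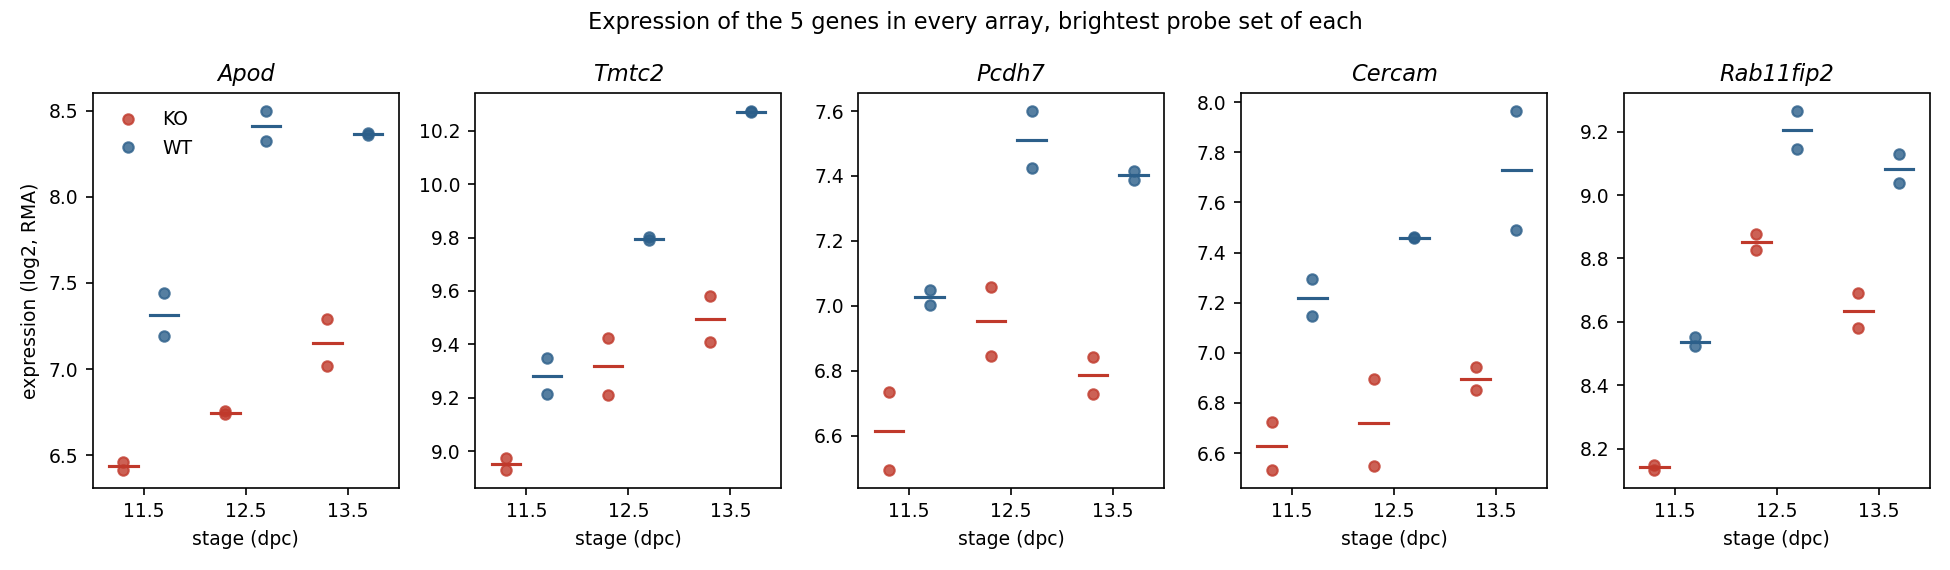
Log2 expression (vertical axis, RMA values, with its own range in each panel) of the brightest probe set of each gene by stage in dpc (horizontal axis), with 1 point per array and a bar at the mean of the 2 arrays of a group. At each stage both KO points (red, left) lie below both WT points (blue, right) for all 5 genes, widest for Apod at 12.5 dpc.

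Pcdh7, the protocadherin, was read by 3 probe sets. The brightest, 1449249_at, measured 6.49 and 6.73 in KO limbs, against 7.001 and 7.050 in WT limbs, at 11.5 dpc. It measured 7.06 and 6.85 in KO limbs, against 7.42 and 7.60 in WT limbs, at 12.5 dpc, and 6.84 and 6.73 in KO limbs, against 7.39 and 7.42 in WT limbs, at 13.5 dpc. No KO array reached a WT array of its stage. KO minus WT was -0.41, -0.56 and -0.62 in the order of the stages (SE 0.11 each), or 0.752, 0.678 and 0.652 of the WT level. From lowest to highest the groups ran KO 11.5, KO 13.5, KO 12.5, WT 11.5, WT 13.5 and WT 12.5 dpc. Neighbours overlapped for KO 11.5 and KO 13.5 dpc and for KO 12.5 and WT 11.5 dpc.

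The other probe sets of Pcdh7 did not all follow. On 1456214_at, KO minus WT was -0.56, -0.43 and -0.77 (SE 0.16 each), again without overlap, though the gap at 12.5 dpc, with 7.43 and 6.91 in KO limbs against 7.46 and 7.73 in WT limbs, was only 0.028. On the dimmest, 1427592_at (mean 6.23), the KO arrays were the lower ones at 12.5 dpc alone (-0.45). There the groups overlapped at 11.5 dpc (-0.07) and at 13.5 dpc, where KO limbs gave 6.09 and 6.10 and WT limbs 5.95 and 6.23.

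Tmtc2, the mannosyltransferase gene, had its brighter probe set, 1429809_at, at 8.98 and 8.93 in KO limbs, against 9.21 and 9.35 in WT limbs, at 11.5 dpc. It measured 9.42 and 9.21 in KO limbs, against 9.79 and 9.80 in WT limbs, at 12.5 dpc. It measured 9.58 and 9.41 in KO limbs, against 10.27 in both WT arrays, at 13.5 dpc. All KO arrays were again the lower ones, with the widest gap at the last stage. KO minus WT was -0.33, -0.48 and -0.78 (SE 0.10 each), or 0.797, 0.718 and 0.584 of the WT level. From lowest to highest the groups ran KO 11.5, WT 11.5, KO 12.5, KO 13.5, WT 12.5 and WT 13.5 dpc, and WT 11.5 overlapped with KO 12.5 dpc and KO 12.5 with KO 13.5 dpc.

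The second Tmtc2 probe set, 1441033_at, lay well above the median of all values (mean 7.38) and yet did not repeat this at every stage. At 11.5 dpc it read 7.06 and 6.85 in KO limbs and 7.01 and 7.05 in WT limbs, and at 12.5 dpc 7.25 and 7.68 in KO limbs and 7.33 and 7.28 in WT limbs. The groups overlapped at both stages. At 13.5 dpc it read 7.54 and 7.37 in KO limbs, against 8.10 and 8.02 in WT limbs, a difference of -0.61 ± 0.14 (SE). The sources used here do not say which transcripts each probe set reads.

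Cercam had 1 probe set, 1435345_at. It measured 6.53 and 6.72 in KO limbs, against 7.15 and 7.29 in WT limbs, at 11.5 dpc. It measured 6.89 and 6.55 in KO limbs, against 7.46 in both WT arrays, at 12.5 dpc, and 6.85 and 6.94 in KO limbs, against 7.96 and 7.49 in WT limbs, at 13.5 dpc. All 6 KO arrays lay below all 6 WT arrays. KO minus WT was -0.59, -0.74 and -0.83 (SE 0.16 each), or 0.664, 0.600 and 0.563 of the WT level. The groups ran KO 11.5, KO 12.5, KO 13.5, WT 11.5, WT 12.5 and WT 13.5 dpc from lowest to highest, and the 3 KO groups overlapped with their neighbours among themselves.

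Rab11fip2, the Rab11 partner, had the smallest mean difference over the stages (-0.40 ± 0.05, SE), though at 11.5 dpc that of Tmtc2 was smaller. Its brightest probe set, 1455169_at, measured 8.13 and 8.15 in KO limbs, against 8.52 and 8.55 in WT limbs, at 11.5 dpc. It measured 8.88 and 8.83 in KO limbs, against 9.26 and 9.15 in WT limbs, at 12.5 dpc, and 8.58 and 8.69 in KO limbs, against 9.13 and 9.04 in WT limbs, at 13.5 dpc. KO minus WT was -0.40, -0.35 and -0.45 (SE 0.09 each), or 0.760, 0.783 and 0.733 of the WT level. The groups ran KO 11.5, WT 11.5, KO 13.5, KO 12.5, WT 13.5 and WT 12.5 dpc, with no overlap between neighbours, so both KO groups of the later stages lay above WT limbs of 11.5 dpc.

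The second Rab11fip2 probe set, 1434948_at, gave -0.17, -0.41 and -0.45 (SE 0.11 each) without overlap at any stage. The third, 1432028_at, was dim (mean 4.51). Its KO and WT arrays overlapped at 11.5 dpc and met at 13.5 dpc, and its mean difference was -0.08 ± 0.07 (SE).

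**Figure D2:**
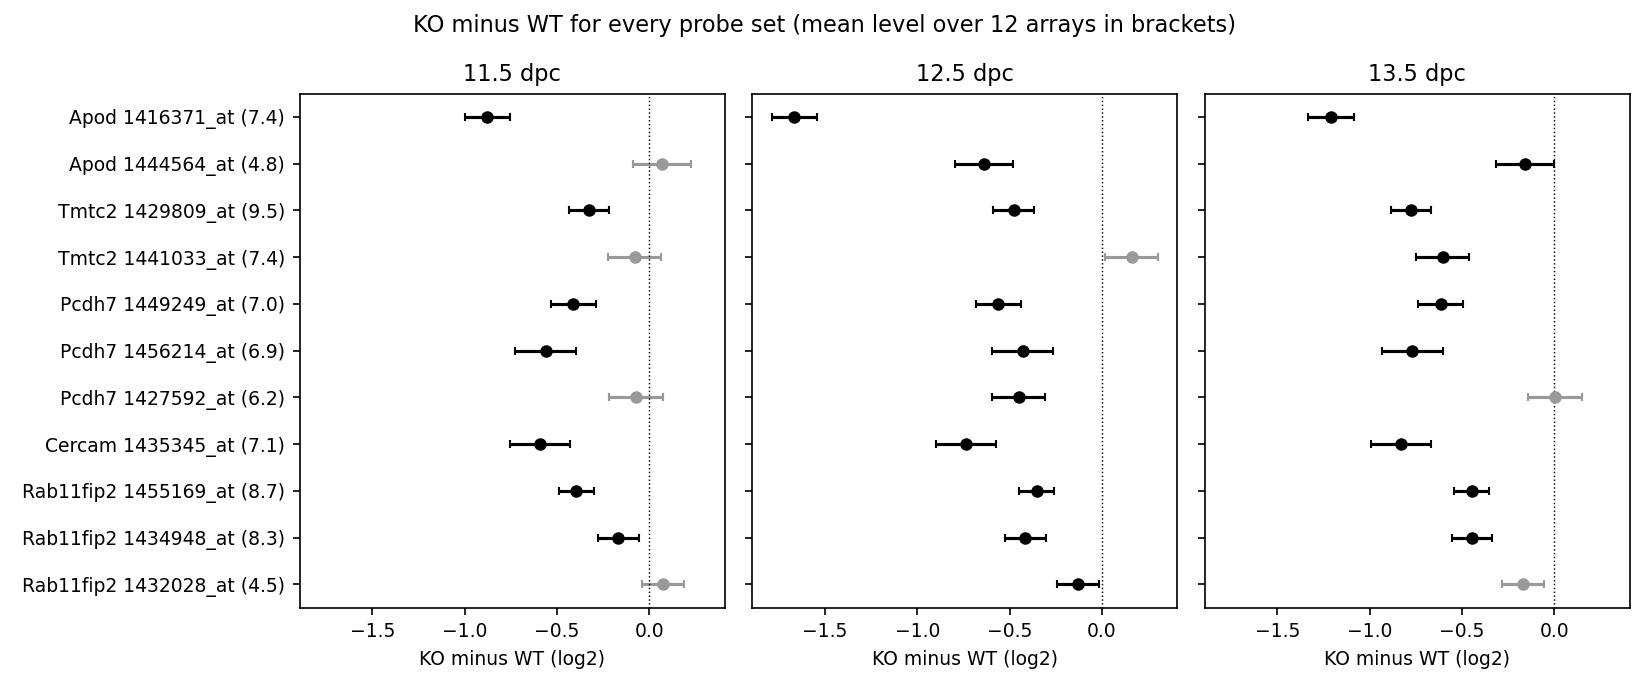
KO minus WT in log2 units (horizontal axis) for the 11 probe sets (rows, with the mean level over 12 arrays in brackets) at each stage, with the SE of the fit over all probe sets as bars. Black points had both KO arrays below both WT arrays, and grey points overlapped. The grey points all belong to the dimmest probe set of Apod, Tmtc2, Pcdh7 or Rab11fip2.

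By the values that chose them, the KO mean lay below the WT mean at all 3 stages in 5 of 5 genes, as in 18.1% of all genes, and both KO arrays lay below both WT arrays at every stage in 5 of 5, as in 1.31% of all genes. Over the 11 probe sets, both KO arrays lay below both WT arrays in 7 at 11.5 dpc, 10 at 12.5 dpc and 9 at 13.5 dpc, where 19.9%, 18.7% and 18.1% of all 45037 probe sets did. The KO mean was below WT at all 3 stages in 7 of the 11, for which the share over all probe sets was not counted. Of the other 4, 3 lay below the median of all values, but Pcdh7 1427592_at only narrowly (6.23 against 6.28). The remaining 1, Tmtc2 1441033_at, averaged 7.38. Genes can be ordered by the KO difference at the stage where it was least negative. In that order Apod stood at place 6, Cercam at 17, Pcdh7 at 39, Rab11fip2 at 55 and Tmtc2 at 61. The genes beside Tmtc2 were Ptger4 (-0.33) and Ihh (-0.32), so the 5 are a selection among many genes with such values and no break in the values separates them. Without both KO arrays that stand apart, the mean difference over the stages was -1.29 for Apod, -0.68 for Cercam, -0.48 for Pcdh7, -0.46 for Tmtc2 and -0.41 for Rab11fip2.

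**Figure D3:**
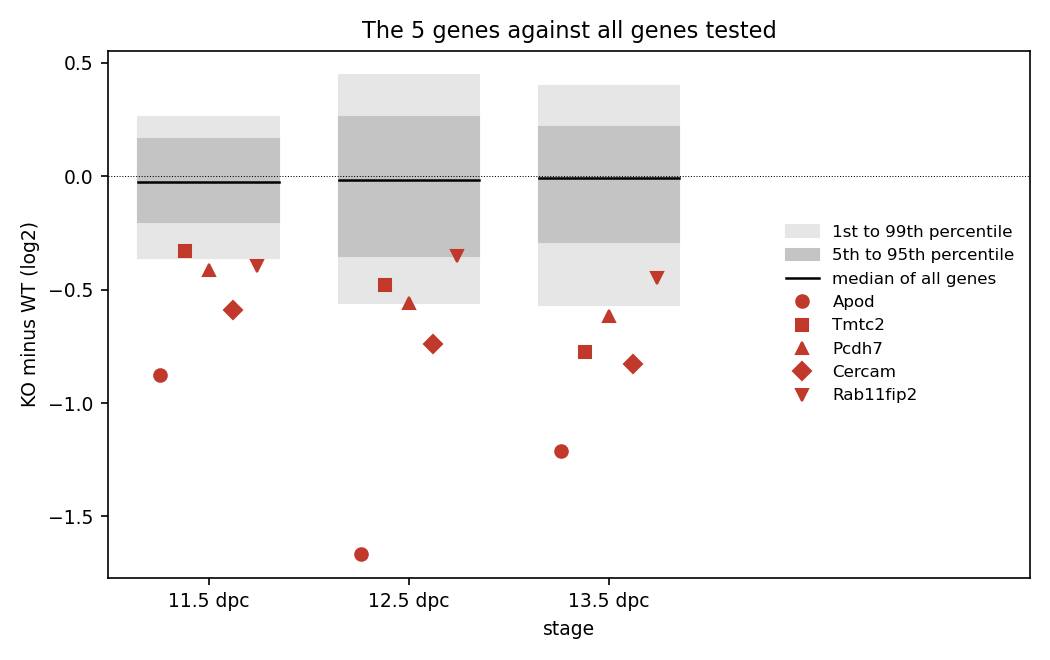
KO minus WT in log2 units (vertical axis) at each stage (horizontal axis) for the brightest probe set of the 5 genes (red symbols), with grey boxes for the 1st to 99th and the 5th to 95th percentile of all 18193 genes and a line at their median. Apod, Cercam and Pcdh7 lie under the 1st percentile at all 3 stages, Pcdh7 by a narrow margin at 12.5 dpc (-0.560 against -0.559), and Rab11fip2 at 12.5 dpc (-0.353) lies close to the 5th percentile (-0.350).

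The change between stages was not used to choose the genes and was tested. Its mean over both genotypes is independent of the KO difference by design, but stage cannot be told apart from the array series or, from 12.5 to 13.5 dpc, from the part of the limb that was dissected. The spread within groups enters these tests and also the lack of overlap between KO and WT arrays. The tests may thus not be wholly free of the choice of genes. Apod, Rab11fip2, Tmtc2 and Pcdh7 rose from 11.5 to 12.5 dpc, and Cercam did not pass the test. The changes were 0.70 ± 0.08 log2 units for Apod (limma adjusted p = 0.000256) and 0.69 ± 0.06 for Rab11fip2 (adjusted p = 8.31e-05). They were 0.44 ± 0.07 for Tmtc2 (adjusted p = 0.0014), 0.41 ± 0.08 for Pcdh7 (adjusted p = 0.00349) and 0.17 ± 0.11 for Cercam (adjusted p = 0.285, errors as SE, n = 4 arrays per stage). Thus 4 of the 5 were called higher at 12.5 dpc and 0 lower, where 12.3% of all genes were called higher and 21.0% lower. All 4 calls held without any 1 of the 12 arrays and without both KO arrays that stand apart. On the dim Apod probe set the rise was 0.28 (adjusted p = 0.0791), and on the 2 other Rab11fip2 probe sets the change was 0.20 and -0.11, neither of which passed. The 2 other Pcdh7 probe sets rose by 0.99 and 0.33 (adjusted p = 0.000233 and 0.0322 over all probe sets).

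The change within 1 genotype holds part of the change of the KO difference, and thus draws in part on the values that chose the genes. In WT limbs alone the rise from 11.5 to 12.5 dpc was called in the same 4 genes, against 6.67% of all genes called higher. It was 1.10 ± 0.12 for Apod (adjusted p = 0.000946), 0.67 ± 0.09 for Rab11fip2 (adjusted p = 0.00164), 0.52 ± 0.10 for Tmtc2 (adjusted p = 0.00814) and 0.49 ± 0.11 for Pcdh7 (adjusted p = 0.016). In KO limbs 2 of the 5 were called higher, against 6.22% of all genes, namely Rab11fip2 (0.71 ± 0.09, adjusted p = 0.00165) and Tmtc2 (0.36 ± 0.10, adjusted p = 0.0365). The KO call of Rab11fip2 rests on its brightest probe set, since 1434948_at gave 0.075 (adjusted p = 0.698 over all probe sets) and 1432028_at -0.21 (adjusted p = 0.242). For the mean of its probe sets the KO change was 0.19 (adjusted p = 0.155). Apod changed by 0.31 ± 0.12 in KO limbs without passing (adjusted p = 0.102), and Pcdh7 by 0.34 ± 0.11 (adjusted p = 0.0706). On 1456214_at, however, KO Pcdh7 rose by 1.05 ± 0.16 (adjusted p = 0.00247 over all probe sets). The difference between the KO and the WT change equals a change of the KO difference and was therefore not tested. For Apod it was -0.79 ± 0.17 (SE), and for the other 4 genes it lay between -0.15 and 0.04. The WT call of Tmtc2 ended without WT 11.5 dpc replicate 1 (adjusted p = 0.0677), and that of Pcdh7 without either WT array of 11.5 dpc or WT 12.5 dpc replicate 2 (adjusted p of up to 0.0902). The KO call of Tmtc2 ended without any 1 array of 11.5 dpc, KO 12.5 dpc replicate 1 or either WT array of 13.5 dpc (adjusted p of up to 0.2), and Pcdh7 was called without KO 12.5 dpc replicate 2 (0.44, adjusted p = 0.0401).

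From 12.5 to 13.5 dpc, Tmtc2 alone was called over both genotypes. It rose by 0.33 ± 0.07 (adjusted p = 0.00567), on its second probe set by 0.37 ± 0.10 (adjusted p = 0.0172 over all probe sets), so 1 of 5 genes was higher and 0 lower, where 21.4% of all genes were called higher and 17.1% lower. Apod changed by 0.18 ± 0.08 (adjusted p = 0.114), Cercam by 0.22 ± 0.11 (adjusted p = 0.147), Pcdh7 by -0.14 ± 0.08 (adjusted p = 0.202) and Rab11fip2 by -0.17 ± 0.06 (adjusted p = 0.0529). Without both KO arrays that stand apart, Tmtc2 (0.32, adjusted p = 0.005) and Rab11fip2 (-0.21, adjusted p = 0.0302) passed. Each of Apod, Cercam and Rab11fip2 passed when 1 array was left out. That array was KO 13.5 dpc replicate 1 for Apod (0.25, adjusted p = 0.0442), WT 13.5 dpc replicate 2 for Cercam (0.34, adjusted p = 0.0379), and WT 12.5 dpc replicate 2 (-0.20, adjusted p = 0.0491) or KO 13.5 dpc replicate 2 (-0.20, adjusted p = 0.0338) for Rab11fip2. The other 2 probe sets of Pcdh7 fell by 0.59 and 0.37 (adjusted p = 0.00348 and 0.0182 over all probe sets).

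By genotype, the second interval gave 1 call each. In WT limbs Tmtc2 rose by 0.48 ± 0.10 (adjusted p = 0.00856), where 14.5% of all genes were called higher, and the call ended without either WT array of 13.5 dpc (adjusted p of up to 0.0585). In KO limbs Apod rose by 0.41 ± 0.12 (adjusted p = 0.0387), where 10.4% of all genes were called higher. That call ended without any 1 KO array except replicate 1 of 13.5 dpc and without either WT array of 13.5 dpc (adjusted p of up to 0.147). Without both KO arrays that stand apart it was 0.26 (adjusted p = 0.203). WT Apod changed by -0.048 ± 0.12 over the same interval.

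**Figure D4:**
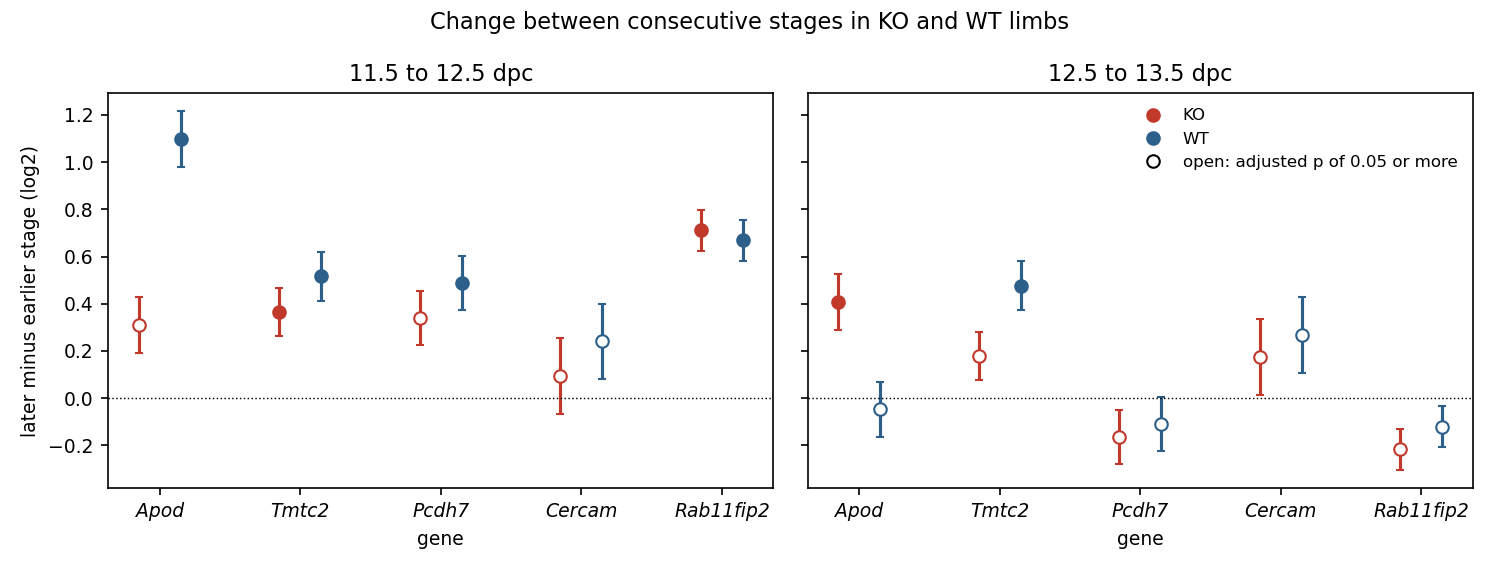
Change between consecutive stages in log2 units (vertical axis, later minus earlier, bars are SE of the fit) for the 5 genes (horizontal axis) in KO (red, left) and WT (blue, right) limbs. Filled points had an adjusted p under 0.05. Apod changed by 0.31 in KO and 1.10 in WT limbs from 11.5 to 12.5 dpc, while Rab11fip2 changed by 0.71 in KO and 0.67 in WT limbs on the brightest probe set shown and by 0.075 and 0.32 on 1434948_at.

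The 5 genes varied together over the 12 arrays. Pearson's r of their 10 pairs lay between 0.714 (Cercam and Rab11fip2) and 0.920 (Apod and Pcdh7). These arrays share genotype, stage and array series, and the genotype difference that chose the genes enters every pair, also after the mean of each stage is removed (r between 0.901 and 0.957). Within a genotype, over 6 arrays each, r lay between 0.321 (Apod and Pcdh7) and 0.824 (Apod and Tmtc2) in KO limbs and between 0.566 (Pcdh7 and Cercam) and 0.972 (Apod and Pcdh7) in WT limbs. Among genes brighter than the median gene, those most like Apod were Kera, the keratocan gene (r = 0.985), Lum, the lumican gene (r = 0.924), and Chst11, a chondroitin sulfotransferase gene (r = 0.922). Lum (r = 0.933), Kera (r = 0.920) and Efemp1, encoding the matrix protein fibulin-3 (r = 0.890), were most like Cercam. Efemp1 (r = 0.958), the decorin gene Dcn (r = 0.957) and Tmem26 (r = 0.956) were most like Tmtc2. Chst11 (r = 0.948), the fatty acid oxidation gene Acadvl (r = 0.926) and Selenos, a selenoprotein gene of the endoplasmic reticulum (r = 0.900), were most like Pcdh7. Those most like Rab11fip2 were the carboxypeptidase gene Cpe (r = 0.947), Arl1, a GTPase gene of the Golgi (r = 0.938), and the kinase gene Sgk1 (r = 0.933). Spearman's rho of these pairs was between 0.860 and 0.986. The genotype difference that chose the 5 genes enters these correlations as well. KO minus WT over the stages ran from -2.78 for Kera and -1.47 for Lum to -0.12 for Selenos and -0.064 for Arl1.

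The relatives and partners of the 5 genes were read from 6 lists with 64 other genes, all measured. Over the 3 stages 0 of the 64 passed in limma as lower in KO, where 0.187% of all genes did, and 0 as higher, where 0.0165% did. An unadjusted p under 0.05 was reached by 4 of them, beside 6.87% of all genes. The KO mean was below WT at every stage in 12 (18.8%), near the 18.1% of all genes. Among 14 other lipocalins, apolipoproteins and their partners, the apolipoprotein E gene Apoe lay at -0.24 ± 0.10 (SE) and Clu at -0.17 ± 0.09. Among 9 O-mannosyltransferases and related genes, the other 3 TMTC genes lay between -0.0092 and 0.065, and Sdf2 at -0.14 ± 0.06. All 9 other protocadherins of the delta type lay on the negative side (median -0.16), where 58.6% of all genes were negative with a median of -0.016. Pcdh19 lay at -0.28 ± 0.13 and Pcdh17 at -0.21 ± 0.11. The 10 classical cadherins, substrates of the TMTC enzymes, had a median of 0.02, and Cdh2, the N-cadherin gene, lay at -0.12 ± 0.07. Among 8 collagen hydroxylases and glycosyltransferases 7 were negative and 4 lay below WT at every stage, where each other list had 1 to 3 such genes. The galactosyltransferase gene Colgalt2 lay at -0.35 ± 0.10 (adjusted p = 0.444) and the prolyl hydroxylase gene P3h1 at -0.30 ± 0.08 (adjusted p = 0.375). The 14 genes of Rab11 and recycling endosomes had a median of -0.022. Tfrc, whose product, the transferrin receptor, travels this route, lay at 0.17 ± 0.10, and Myo5b, the gene of the myosin that Rab11fip2 binds, at 0.13 ± 0.18. Without KO 12.5 dpc replicate 1, Pcdh19 (-0.43, adjusted p = 0.00956), P3h1 (-0.37, adjusted p = 0.0173) and Clu (-0.27, adjusted p = 0.0232) passed.

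Markers of some cell types lay on the same side as the 5 genes, and those of others did not. Of all genes, 58.6% were negative over the stages and 6.87% had an unadjusted p under 0.05 in limma. The KO mean lay below WT at every stage in 18.1%, and 0.187% passed as lower and 0.0165% as higher. All 10 cartilage markers had a negative KO difference over the stages, with a median of -0.57 and 0 passing in limma (8 with an unadjusted p under 0.05). In all 10 of these markers the KO mean lay below WT at every stage. Their mean level lay between 7.85 and 8.10 in KO limbs and 8.25 and 8.52 in WT limbs at 11.5 dpc, and between 8.19 and 9.16 in KO and 9.36 and 9.42 in WT limbs at 12.5 dpc. At 13.5 dpc it lay between 8.77 and 9.21 in KO and 9.73 and 9.74 in WT limbs. All 10 markers of connective tissue fibroblasts were negative as well, with a median of -0.14 and Lum passing as lower (-1.47 ± 0.22, adjusted p = 0.0306). In 4 of them the unadjusted p in limma was under 0.05, and in 5 the KO mean lay below WT at every stage. The mesenchyme markers had a median of -0.06, and 0 passed (2 with an unadjusted p under 0.05). Of these 10, 7 were negative, not far from the 58.6% of all genes, but 5 lay below WT at every stage, where 18.1% of all genes did. Fibroblast markers averaged between 9.79 and 9.90 in KO limbs, against 10.09 and 10.15 in WT limbs, at 11.5 dpc. They lay between 9.68 and 10.46 in KO and 10.39 and 10.51 in WT limbs at 12.5 dpc, and between 10.43 and 10.45 in KO and 10.86 and 10.88 in WT limbs at 13.5 dpc. In the cartilage list and in the fibroblast list 1 marker of 10 each was below the median of all values. Of 8 endothelial markers 7 were negative, with a median of -0.14 and 0 passing (2 with an unadjusted p under 0.05), and 4 lay below WT at every stage. Their mean level lay between 8.50 and 8.57 in KO and 8.58 and 8.80 in WT limbs at 11.5 dpc, between 8.35 and 8.52 in KO and 8.52 and 8.53 in WT limbs at 12.5 dpc, and between 8.34 and 8.54 in KO and 8.56 and 8.57 in WT limbs at 13.5 dpc. The 8 measured markers of the proximal limb and girdle were split, with a median of 0.049 and 6 with an unadjusted p under 0.05. Emx2, a homeobox gene of the girdle, passed as lower (-1.61 ± 0.14, adjusted p = 0.00149), and Pax9 passed as higher (0.59 ± 0.09, adjusted p = 0.0307). The 6 measured erythroid markers were all positive, with a median of 0.18 and 0 passing (2 with an unadjusted p under 0.05), and at 13.5 dpc they averaged between 9.27 and 9.92 in KO limbs, against 8.71 and 8.96 in WT limbs. Surface ectoderm markers had a median of -0.008 (6 of 10 negative), macrophage markers -0.012 (5 of 8) and skeletal muscle markers 0.017 (4 of 8). The 5 measured markers of Schwann and neural crest cells had a median of -0.11, with 4 negative. In these lists 0 markers passed in limma, and 0 had an unadjusted p under 0.05. In the proximal limb, muscle and Schwann lists 1 marker each lay below WT at every stage. In the ectoderm, macrophage and erythroid lists 0 did. The part of any of these cell types in the lower levels of the 5 genes was not tested.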

How the data were processed

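The log2 expression values of 45101 probe sets in 12 arrays (Affymetrix) were deposited by the authors, and the submitters' processing notes name RMA without a version. That method corrects background, normalizes between arrays and summarises probes, and it compresses differences of dim probe sets. The 64 control probe sets were left out. Of the rest, 34945 named 1 gene in the platform's annotation, 932 several and 9160 none in the table used. Of the 34945, 34741 were matched by gene identifier to RefSeq (GRCm38.p6), and the rest kept the symbol of the annotation. The brightest probe set stood for each of 18193 genes.

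limma 3.58.1 (R 4.3.3) fitted 1 mean per group over the 12 arrays (6 residual degrees of freedom, two-sided tests, Benjamini-Hochberg adjustment over all genes, threshold 0.05). The p-values measure the spread between pools of limbs. The number of arrays limits the precision. The fit was tested on simulated data. The 5 genes, the gene lists and the tests were chosen with earlier results of these data known. Named besides them were Lmx1b, the 3 genes most like each by Pearson's r, list members with the larger differences, and markers where an array stands apart. Ptger4, Ihh, Xist, Hspa1a, Emx2, Pax9 and the range of the other TMTC genes were given after their values were seen. Alternatives left out single arrays, changed the probe set, normalization, filter, weights and variance prior, or added a replicate block.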

Additional observations from a re-analysis of the deposited data

How the results depend on the processing

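With 2 arrays per group, and 3 of 11 probe sets below the median of all values, the arrays limit the precision. The main fit did not pair pools by replicate number. Replicate 1 minus replicate 2 correlated between -0.193 and 0.187 over genes in the 15 pairs of groups. Between KO and WT of the same stage it was 0.187 at 11.5, -0.120 at 12.5 and -0.087 at 13.5 dpc. Such values cannot exclude that pools with the same number had something in common. With a replicate block, which leaves the mean differences as they are, no stage call of these genes changed, with 4 of 5 called from 11.5 to 12.5 dpc. Values moved with the probe set, and the cause was not tested. On the dimmest probe set of each gene 1 of 5 lay below WT at all stages, namely Cercam, whose only probe set is also its brightest. The KO mean lay above WT for Apod (0.066) and Rab11fip2 (0.075) at 11.5 dpc. It also did for Tmtc2 at 12.5 dpc (0.16) and, barely, for Pcdh7 at 13.5 dpc (0.0029). Mean differences over the stages were -0.24 (Apod), -0.18 (Tmtc2), -0.17 (Pcdh7) and -0.075 (Rab11fip2). For the mean of a gene's probe sets Apod gave -0.75, Tmtc2 -0.35 and Rab11fip2 -0.27.

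Calls between stages depended on the setting as follows. Over both genotypes 4 of 5 were called from 11.5 to 12.5 dpc, but 2 on the dimmest probe sets. From 12.5 to 13.5 dpc 1 was called, but 2 for the mean of probe sets, the dimmest ones, with dim genes left out, and without both KO arrays that stand apart. In WT limbs the first interval gave 4 calls, but 2 on the dimmest probe sets, and the second gave 1, but 2 there. In KO limbs the first interval gave 2 calls, also 2 for the mean of probe sets, where Rab11fip2 was lost and Pcdh7 gained, but 1 with array quality weights or the dimmest probe sets and 0 from the arrays compared alone. The second gave 1, but 0 for the mean of probe sets, the dimmest ones, array weights, the compared arrays alone, and without both KO arrays. Leaving out each array in turn gave 2 to 4 calls in WT and 1 to 3 in KO limbs for the first interval, and 1 to 2 over both genotypes, 0 to 1 in WT and 0 to 1 in KO limbs for the second. It gave 0 to 3 calls among the 64 related genes.

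Directions turned only for changes that did not pass in that setting. On the dimmest probe set Rab11fip2 gave -0.11, -0.0073 and -0.21 in the first interval and 0.13, 0.15 and 0.11 in the second (both genotypes, WT, KO), Apod -0.070 in KO in the first and Tmtc2 -0.013 in KO in the second. On 1434948_at Rab11fip2 gave 0.041, 0.057 and 0.025 in the second interval, and for the mean of probe sets 0.028 in WT. KO Cercam in the first interval ran from -0.078 to 0.27 when 1 array was left out, and in the second was -0.041 without both KO arrays. WT Apod in the second ran from -0.13 to 0.037. Renewed quantile normalization and the trended robust prior changed no count of calls by over 1.5 times.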
